A study of Mus musculus with 12 samples.

Results

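The insulin-like growth factor (IGF) system was described in mouse peri-infarct cortex by 10 of its genes: the ligands Igf1 and Igf2, the receptors Igf1r and Igf2r, and the binding proteins Igfbp2 to Igfbp7. They were chosen by symbol from 25238 genes, and all 10 passed the filter on low counts in every comparison. The libraries came from 12 mice, 4 in each group, with 1 library per mouse. Veh mice had a middle cerebral artery occlusion (MCAo), a model of ischemic stroke, and received vehicle (5% DMSO in saline). ISP mice had the same stroke and received ISP, the intracellular sigma peptide, which enters cells and binds the proteoglycan receptor PTPσ, at 1 μg/g/day. Tissue of both groups was micro-punched from frozen cortex near the infarct at day 14 post-stroke. For the Veh mice the methods name vehicle as treatment, while the results text of the study names a scrambled peptide. The 4 remaining libraries are labelled control, with peri-infarct cortex as their tissue and no surgery, treatment or day in the sources used here. They were compared only under that label. The labels give no strain, age or sex. The study describes MCAo in young adult male mice, either wild type or carrying a nestin reporter, and does not say which were sequenced. Treatment was given daily, starting on the day after stroke.

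IGF1 and IGF2 are secreted peptides that bind the receptor tyrosine kinase IGF1R, which signals through IRS adaptors to the PI3K-AKT and RAS-MAPK pathways. IGF2R carries no kinase and takes IGF2 to lysosomes, while the IGF-binding proteins hold the ligands in the extracellular space and set how much of them reaches the receptor. In the brain, Igf1 is made by some neurons and by activated microglia, Igf2 mainly by the choroid plexus and leptomeninges, and the binding proteins by a range of neurons, glia and vascular cells.

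Total counts per library ranged from 17442711 to 29845629, and the lowest count of any member in any library was 99 reads, for Igf1 in ISP 12. Values are CPM, read counts scaled to a common library size after TMM normalization, with means ± SD over n = 4. A gene was called at a Benjamini-Hochberg adjusted p under 0.1 from edgeR's quasi-likelihood test, over all genes tested. Library composition differed within groups. Choroid plexus markers summed to 1698 CPM in Veh 6 and 1164 CPM in ISP 18, against 0.386 to 3.44 CPM in the other 10 libraries, and leptomeninges and fibroblast markers to 203 CPM in Veh 10, against 15.7 to 61.7 CPM elsewhere. Homeostatic microglia markers summed to 956 CPM in ISP 14 and 917 CPM in ISP 18, against 267 to 518 CPM in the other 10. The astrocyte gene Gfap averaged 27.9 ± 3.71 CPM in control, 307 ± 242 CPM in Veh and 1124 ± 947 CPM in ISP, and the neuron markers summed to between 7179 and 8924 CPM in all 12 libraries. Layer 6b and claustrum markers summed to 52.7 to 94.8 CPM in control, 43.0 to 99.9 CPM in Veh and 62.9 to 138 CPM in ISP. In ISP with Veh, where edgeR called no gene, 4 of the 5 tested had log2 fold changes above 0 (median 0.895). Of these 5, 2 had an unadjusted p under 0.05 there. In bulk tissue, fewer cells of a type and less RNA per cell cannot be told apart.

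Across the 3 comparisons, 3 members were called in at least 1: Igf2 was higher in Veh than in control, and in ISP compared with control Igfbp5 was higher and Igfbp6 lower. The Igf2 call was lost without Veh 6 and Veh 10 (log2 fold change 0.27, edgeR adjusted p = 0.475). In Veh with control, 1 of 10 members was called, against 2.23% of 15126 genes tested. In ISP with control, 2 of 10 members were called, against 10.2% of 15232 genes. In ISP with Veh, the treatment comparison, edgeR called 0 of 10 members and 0.0% of 15214 genes, with 3 members (Igfbp3, Igfbp5 and Igfbp6) and 2334 genes at an unadjusted p under 0.05, and limma-voom also called 0 genes. DESeq2 called Igfbp5 and Igfbp6 in ISP with Veh, 2 of 10 members against 2.77% of the 14608 genes to which it gave an adjusted p. The median log2 fold change of the members was -0.06 in ISP with Veh (all genes 0.02), 0.10 in Veh with control (all genes 0.02) and 0.17 in ISP with control (all genes -0.01). Veh with control and ISP with control share their control libraries.

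**Figure D1:**
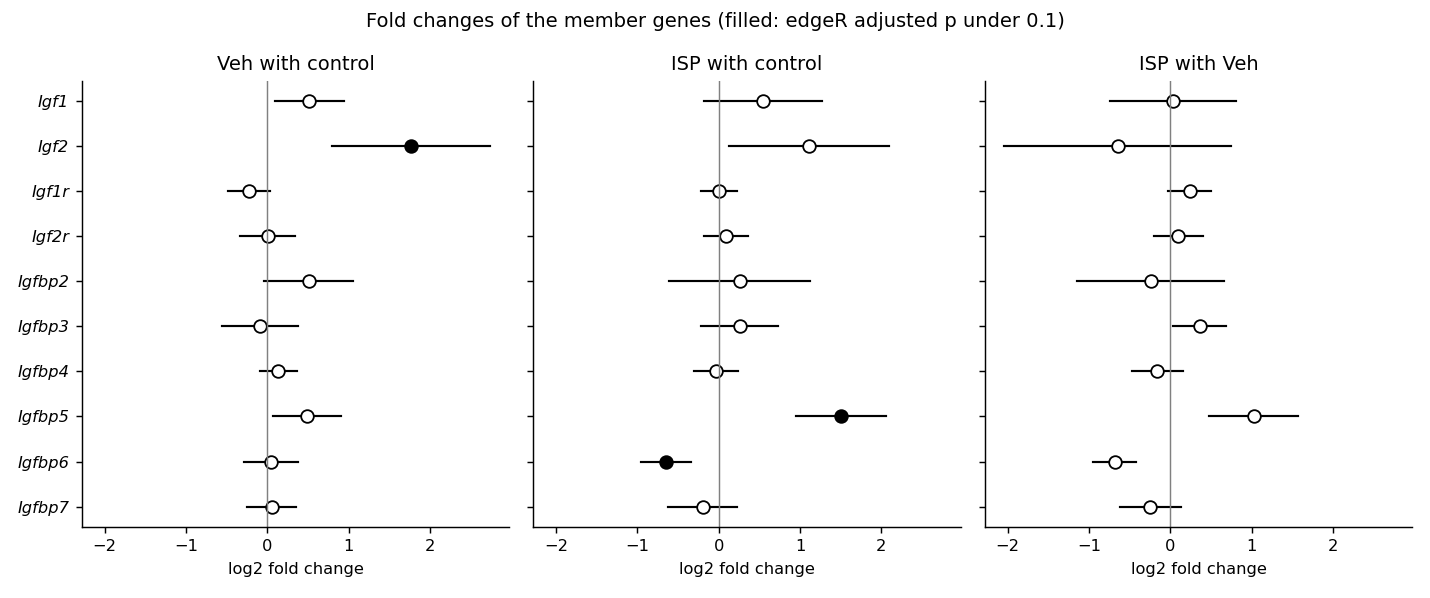
Log2 fold changes (x axis) of the 10 member genes (rows) in the 3 comparisons, from edgeR. Points are estimates, lines are 95% confidence intervals, and filled points have an adjusted p under 0.1. Igf2 is filled in Veh with control, Igfbp5 and Igfbp6 in ISP with control, and none in ISP with Veh.

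The group values of no member separated in Veh with control, where those of 9.67% of all genes tested did. Igfbp5 and Igfbp6 separated in ISP with control (11.9% of genes), and Igfbp3 and Igfbp6 in ISP with Veh (6.81% of genes). All other group pairs overlapped for every member.

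Levels were compared between members as CPM per kb of exon. In control, the transcripts of the binding proteins stood above those of ligands and receptors, apart from Igfbp3. Igfbp6 had the highest mean level at 70.3 CPM per kb, followed by Igfbp4 at 46.0, and the ranges of these 2 genes over the 4 control libraries did not overlap. Igfbp7, Igfbp5 and Igfbp2 came next at 23.2, 19.8 and 18.4 CPM per kb, with overlapping ranges. Igf1r (3.94 CPM per kb), Igfbp3 (2.73), Igf2 (2.63) and Igf2r (2.52) followed, each overlapping with the next. Igf1 was lowest at 0.708 CPM per kb, below the range of every other member.

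In Veh the order again opened with Igfbp6 at 72.4 and Igfbp4 at 50.3 CPM per kb, with overlapping ranges, followed by Igfbp5 at 27.6. In ISP, Igfbp5 had the highest mean at 56.2 CPM per kb, followed by Igfbp4 at 45.1 and Igfbp6 at 45.1, each overlapping with the next. Igf1 was lowest in all 3 groups, at 1.01 CPM per kb in Veh and 1.03 in ISP.

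**Figure D2:**
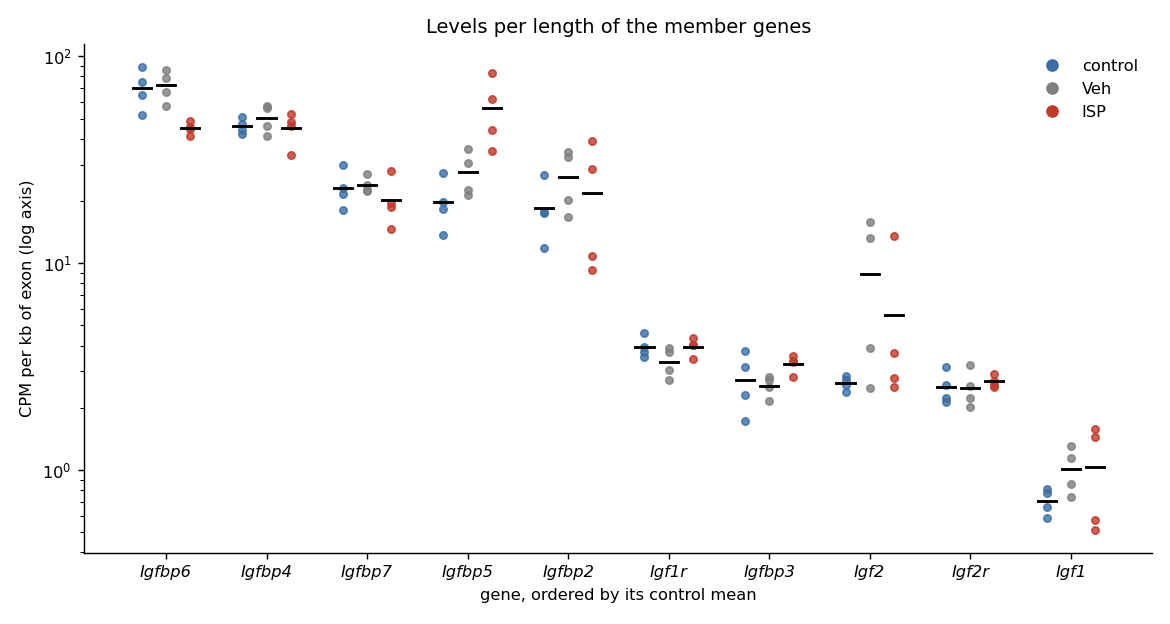
CPM per kb of exon (y axis, log scale) of each member gene (x axis, ordered by control mean) in control, Veh and ISP. Points are libraries and bars are group means; Igfbp5 moves from 19.8 in control to 56.2 in ISP, and Igf1 is lowest in each group.

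Igf1, the ligand that drives postnatal growth through IGF1R, lies on chromosome 10 from 87858265 to 87937042 on the plus strand (mm10). It was measured at 7.68, 6.56, 5.78 and 8.04 CPM in control 19, 21, 36 and 38. The Veh libraries 2, 6, 8 and 10 had 11.3, 8.47, 7.30 and 13.0 CPM. In ISP 12, 14, 16 and 18 it stood at 5.10, 14.4, 5.69 and 15.6 CPM. The ISP group thus held both the highest and the lowest libraries of the series, with ISP 14 and ISP 18 above every other library and ISP 12 and ISP 16 below every other library. The log2 fold change of Igf1 was 0.52 (SE 0.20, edgeR adjusted p = 0.21) in Veh with control and 0.55 (SE 0.33, adjusted p = 0.366) in ISP with control. In ISP with Veh it was 0.04 (95% interval -0.74 to 0.81, adjusted p = 0.973), and it was -0.89 without ISP 14 and ISP 18. ISP 14 and ISP 18, highest in Igf1, also had the highest sums of the homeostatic microglia list, given above, and of the activated microglia and macrophage list, at 533 and 518 CPM against 85.8 to 189 CPM in the other 10 libraries. ISP 12 and ISP 16, lowest in Igf1, were not low in these markers. Their homeostatic sums of 411 and 375 CPM and activated sums of 136 and 116.5 CPM exceeded those of every control library, at 267 to 293 and 85.8 to 94.7 CPM. In ISP with control, 5 of 6 homeostatic markers and 6 of 7 tested activated markers were called higher, against 10.2% of all genes. The activated list held 10 genes, and those not tested fell below the filter. The called Clec7a averaged 0.0719 CPM in control and 14.5 CPM in ISP, so it passed the filter only through the ISP libraries. The part of microglia in the Igf1 values was not tested.

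Igf2, the imprinted ligand with high fetal expression, lies on chromosome 7 from 142650766 to 142666816 on the minus strand. Control libraries 19, 21, 36 and 38 gave 16.3, 13.6, 14.7 and 15.6 CPM. Veh 2, 6, 8 and 10 gave 22.3, 76.0, 14.3 and 90.2 CPM. ISP 12, 14, 16 and 18 gave 16.0, 21.1, 14.4 and 77.7 CPM. The values of Igf2 fell into a group of 3 high libraries, Veh 6, Veh 10 and ISP 18, and 9 others at 13.6 to 22.3 CPM, so that its coefficient of variation was 7.75% in control, 75.0% in Veh and 94.1% in ISP. In Veh with control, Igf2 was 3.40-fold higher (log2 fold change 1.77, SE 0.45, edgeR adjusted p = 0.0953). Without Veh 6 and Veh 10 the log2 fold change was 0.27 (adjusted p = 0.475), and leaving out any 1 library other than Veh 8 also took the adjusted p above 0.1. In ISP with control the log2 fold change was 1.11 (SE 0.45, adjusted p = 0.17), and with 1 library left out it ran from 0.19 without ISP 18 to 1.34 without ISP 16, where it was called (adjusted p = 0.062). In ISP with Veh it was -0.64 (95% interval -2.04 to 0.75, adjusted p = 0.651), and it ran from -1.56 without ISP 18 to -0.22 without Veh 10.

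Of the 3 libraries with high Igf2, Veh 6 and ISP 18 had the highest choroid plexus sums and Veh 10 the highest leptomeninges and fibroblast sum. Ttr, the transthyretin gene and the most abundant choroid plexus marker, stood at 1540 CPM in Veh 6 and 1051 CPM in ISP 18, against 0 to 1.07 CPM in the other 10 libraries. Otx2, a transcription factor of choroid plexus epithelium, had no count in those 10 libraries, Veh 10 included. All 6 choroid plexus markers were highest in Veh 6 or ISP 18. The leptomeninges and fibroblast list, which holds the collagen genes Col1a1, Col1a2 and Col3a1, summed to 17.9 to 22.7 CPM in control, 22.8 to 203 CPM in Veh and 15.7 to 61.7 CPM in ISP. Of its 10 genes, 0 were called in Veh with control, where all 10 log2 fold changes were above 0 (median 1.93) and 8 had an unadjusted p under 0.05. Among the Veh libraries, which ISP with Veh also uses, the collagen genes were high in Veh 10 alone. Col1a1, Col1a2 and Col3a1 stood at 53.1, 57.0 and 18.4 CPM there, and at most at 5.52, 8.84 and 1.66 CPM in the other Veh libraries. The same genes stood at 11.2, 10.2 and 6.45 CPM in ISP 14 and at 11.9, 12.2 and 7.97 CPM in ISP 18. Igf2 was at 21.1 CPM in ISP 14 and at 77.7 CPM in ISP 18. The leptomeninges and fibroblast list had 2 of 10 genes called higher in ISP with control, against 10.2% of all genes called in either direction. All 10 log2 fold changes were below 0 in ISP with Veh, where edgeR called no gene at all (median -1.14, with 3 at an unadjusted p under 0.05). The part of these tissues in the Igf2 values was not tested. In GENCODE M21, a protein-coding gene model on the same strand, Gm49394, shares 62.8% of the exon bases of Igf2 and has no row in the count table. Whether the annotation used for counting with HTSeq held Gm49394 is not given in the sources used here.

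**Figure D3:**
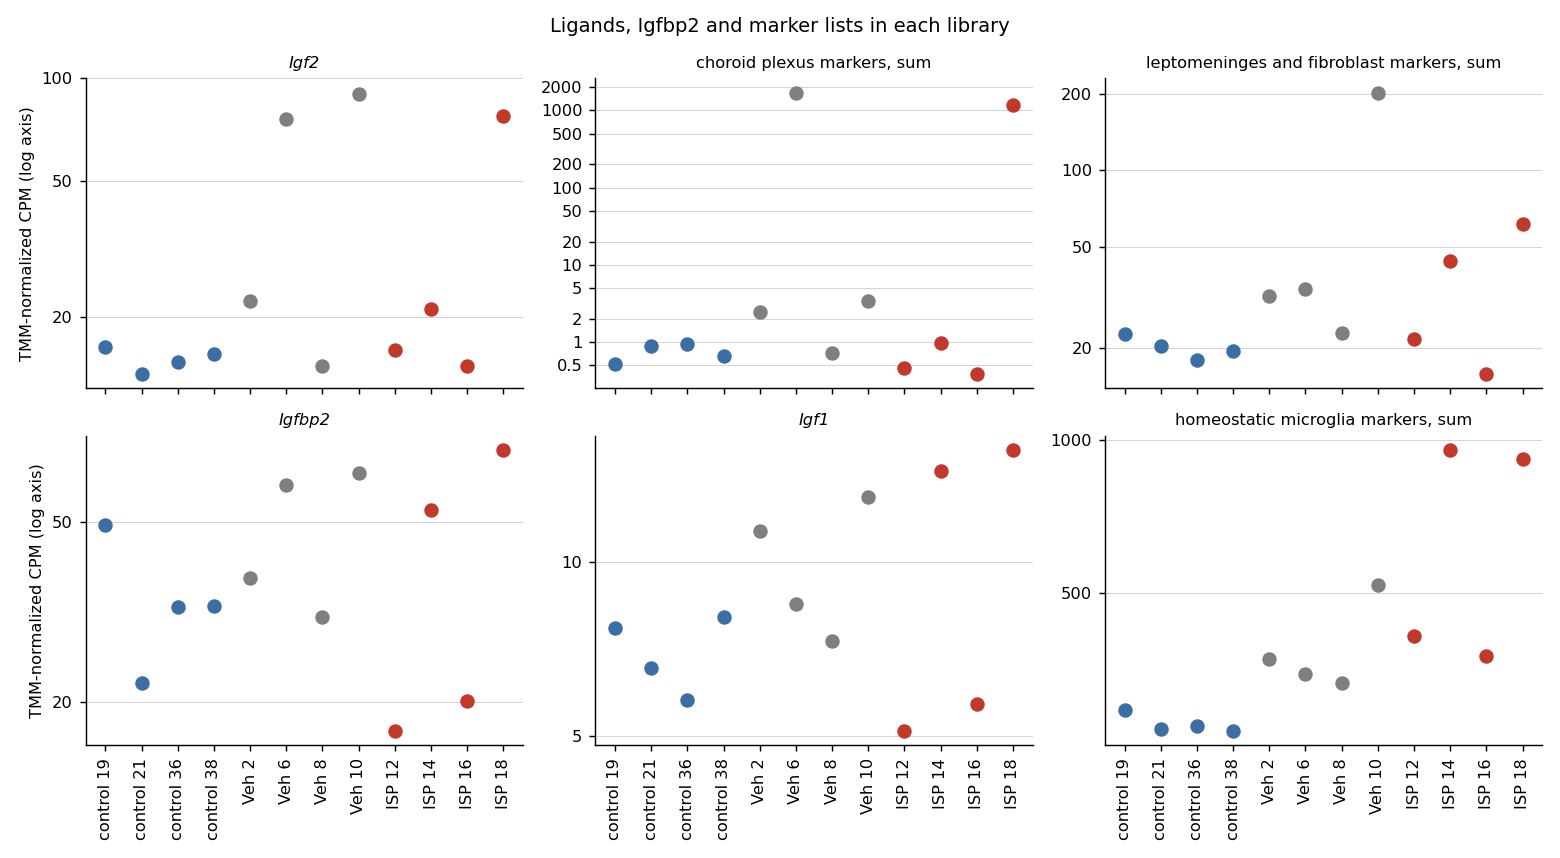
CPM (y axes, log scale) of Igf2, Igfbp2 and Igf1 and summed CPM of 3 marker lists in each of the 12 libraries (x axis; blue control, grey Veh, red ISP). Igf2 is high in Veh 6, Veh 10 and ISP 18, which have high choroid plexus or leptomeninges sums, and Igf1 is highest in ISP 14 and ISP 18, which have the highest microglia sums.

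Igf1r encodes the receptor tyrosine kinase of the system and lies on chromosome 7 from 67952827 to 68233668 on the plus strand. Its levels were 62.6, 77.0, 65.9 and 58.8 CPM in control 19, 21, 36 and 38. In Veh 2, 6, 8 and 10 they were 45.6, 65.3, 51.4 and 62.2 CPM. In ISP 12, 14, 16 and 18 they were 57.6, 67.3, 67.6 and 72.9 CPM. The lowest 2 libraries were both Veh, and the ranges of all 3 groups overlapped. Igf1r was not called in any comparison, with log2 fold changes of -0.22 (SE 0.12, edgeR adjusted p = 0.386) in Veh with control, 0.00 (SE 0.10, adjusted p = 0.986) in ISP with control and 0.24 (95% interval -0.02 to 0.50, adjusted p = 0.361) in ISP with Veh.

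Igf2r, the clearance receptor for IGF2 that also sorts lysosomal enzymes, lies on chromosome 17 from 12682406 to 12769664 on the minus strand. It ranged from 19.8 to 29.3 CPM in control, from 18.8 to 29.9 CPM in Veh and from 23.5 to 27.2 CPM in ISP. The ISP range lay inside those of both other groups. Its log2 fold changes were 0.01 in Veh with control, 0.09 in ISP with control and 0.10 in ISP with Veh, and the 95% interval of the last was -0.20 to 0.40. The insulin receptor gene Insr, whose protein also pairs with IGF1R in hybrid receptors, averaged 49.5 ± 4.92 CPM in control, 41.3 ± 8.56 CPM in Veh and 48.8 ± 1.54 CPM in ISP, and was not called in any comparison (lowest edgeR adjusted p = 0.402).

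Among the binding proteins, Igfbp5 and Igfbp6 separated the ISP libraries from control in opposite directions. Igfbp5, a matrix-bound binding protein, lies on chromosome 1 from 72857932 to 72874884 on the minus strand. Igfbp6, which binds IGF2 with higher affinity than IGF1, lies on chromosome 15 from 102144362 to 102149511 on the plus strand. The 250 bases before the RefSeq start site of each gene (GRCm38.p6) are given to show the sequence next to the start of the 2 members that were called in ISP with control; capitals mark CG dinucleotides. The Igfbp5 window is chr1:72874866-72875115 on the minus strand and the Igfbp6 window is chr15:102143936-102144185 on the plus strand.
Igfbp5: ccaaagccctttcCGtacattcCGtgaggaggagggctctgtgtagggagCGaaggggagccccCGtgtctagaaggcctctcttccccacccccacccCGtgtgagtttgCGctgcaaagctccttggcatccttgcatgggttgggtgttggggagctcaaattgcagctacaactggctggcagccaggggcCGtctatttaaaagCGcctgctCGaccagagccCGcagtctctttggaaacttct
Igfbp6: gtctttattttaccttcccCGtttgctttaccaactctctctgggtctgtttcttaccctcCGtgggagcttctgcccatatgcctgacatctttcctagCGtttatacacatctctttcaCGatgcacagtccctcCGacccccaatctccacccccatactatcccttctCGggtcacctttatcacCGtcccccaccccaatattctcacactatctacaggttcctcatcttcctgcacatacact
The Igfbp5 window had a GC content of 58.8% and 10 CG dinucleotides, and the Igfbp6 window 49.6% and 7, where the medians over 32851 RefSeq windows of the same length were 52.4% and 6. Both strands were searched for TATAAA (held by 12.4% of all windows), GGGCGG (32.7%), CACGTG (6.02%), TGANTCA (6.75%) and GTAAACA (3.17%). The Igfbp5 window held none of these, and the Igfbp6 window held TATAAA once, on the opposite strand, starting at position -148 from the start site. Of the other members with a window, TATAAA was found only for Igfbp4, at position -28. GENCODE M21 places the start of Igfbp6 downstream of the RefSeq start, at 102144362.

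Igfbp5 was measured at 82.1, 165, 118.5 and 110.4 CPM in control 19, 21, 36 and 38. Veh libraries 2, 6, 8 and 10 had 129, 214, 136 and 184 CPM. The ISP libraries 12, 14, 16 and 18 had 265, 375, 210.1 and 500.0 CPM. Every ISP library stood above every control library, and 3 of 4 stood above every Veh library, the exception being ISP 16, which lay just below Veh 6. Means were 119 ± 34.3 CPM in control, 166 ± 40.5 in Veh and 337.5 ± 128 in ISP. Igfbp5 was 2.84-fold higher in ISP than in control (log2 fold change 1.51, SE 0.26, edgeR adjusted p = 0.0204). In ISP with Veh it was 2.04-fold higher, a log2 fold change of 1.03 with a 95% interval of 0.48 to 1.57, and was not called by edgeR (adjusted p = 0.261). DESeq2 gave 1.02 (SE 0.32, adjusted p = 0.079) for this comparison, a call that was lost without ISP 14, ISP 18, Veh 2, Veh 8 or Veh 10 (adjusted p = 0.299, 0.175, 0.34, 0.332 and 0.102). In Veh with control the log2 fold change was 0.49 (SE 0.19, edgeR adjusted p = 0.228).

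With ISP 14 and ISP 18 left out, Igfbp5 had a log2 fold change of 1.00 in ISP with control (edgeR adjusted p = 0.0649) and of 0.52 in ISP with Veh (adjusted p = 0.623). The sum of the astrocyte markers was highest in the same ISP libraries. It was 5507 CPM in ISP 14 and 6044 CPM in ISP 18, against 2722 to 4597 CPM in the other 10 libraries. Gfap alone gave 1289 CPM in ISP 14 and 2393 CPM in ISP 18. Slc1a2 and Slc1a3 were lower in ISP 18 (2702 and 460.5 CPM) than in Veh 10 (3071 and 469.4 CPM). The remaining markers were higher in ISP 18 than in Veh 10, as was every marker in ISP 14. Of the 6 markers, 4 were called higher in ISP than in control, against 10.2% of all genes. Oligodendrocyte markers summed to 3263 to 4923 CPM in control, 2793 to 6968 in Veh and 4678 to 11230 in ISP. They were highest in ISP 18, followed by ISP 12 at 7267, Veh 6 at 6968 and ISP 14 at 6630 CPM. Of these 6 markers 5 were called higher in ISP than in control, against the same 10.2% of all genes. All 6 had log2 fold changes above 0 in ISP with Veh (median 0.69, with 4 at an unadjusted p under 0.05), where edgeR called 0.0% of all genes. The part of these cell types in the Igfbp5 values was not tested.

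Igfbp6 stood at 98.7, 58.0, 72.4 and 83.6 CPM in control 19, 21, 36 and 38. The values of Veh 2, 6, 8 and 10 were 95.9, 63.9, 87.4 and 74.8 CPM. Those of ISP 12, 14, 16 and 18 were 54.3, 49.7, 50.7 and 45.7 CPM. All 4 ISP libraries lay below all 8 others, and they were closely spaced, with a coefficient of variation of 7.11% against 22.1% in control and 17.4% in Veh. Igfbp6 was lower in ISP than in control, with a log2 fold change of -0.65 (SE 0.14, edgeR adjusted p = 0.0306). In ISP with Veh the log2 fold change was -0.68 with a 95% interval of -0.95 to -0.42, and its unadjusted p of 0.00012 ranked 5 of 15214 genes, although the adjusted p was 0.261. DESeq2 gave -0.69 (SE 0.13, adjusted p = 0.000469), and called Igfbp6 with each library left out in turn. Veh and control differed by 0.05 (95% interval -0.29 to 0.38).

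The Igfbp6 transcript is short and GC-rich (1112 exon bases, 60.7% GC), and with the trends of GC content and length removed its log2 fold change was -0.49 in ISP with Veh (edgeR adjusted p = 0.337) and -0.54 in ISP with control (adjusted p = 0.022). Without Veh 6 it was called in ISP with Veh (-0.79, adjusted p = 0.0378), and without ISP 14 and ISP 18 it was not called in ISP with control (-0.57, adjusted p = 0.275). Markers of interneuron classes, among them Sst and Crh, summed to 691 to 1033 CPM in control, 653 to 939 in Veh and 547 to 666 in ISP. Of these 6 markers 2, Sst and Crh, were called lower in ISP than in control, against 10.2% of all genes called in either direction. The log2 fold changes of all 6 were below 0 in ISP with Veh (median -0.44, with 5 at an unadjusted p under 0.05), where edgeR called 0.0% of all genes. Gad1 and Gad2, which these classes share, had log2 fold changes of 0.055 and -0.025 in ISP with control. In ISP with Veh they were 0.056 and -0.091. The part of interneurons in the Igfbp6 values was not tested.

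**Figure D4:**
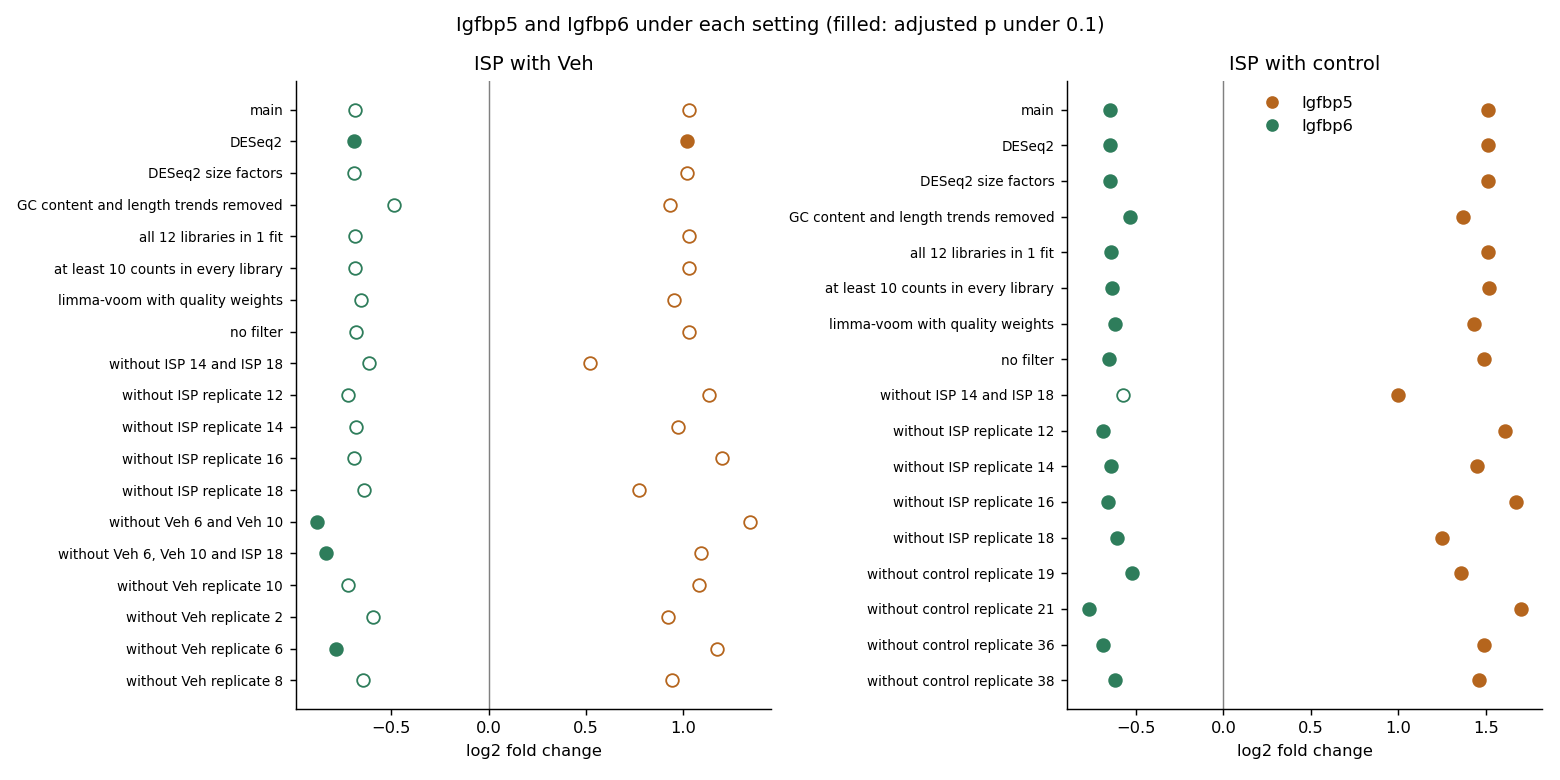
Log2 fold changes (x axis) of Igfbp5 (brown) and Igfbp6 (green) in ISP with Veh and ISP with control under each fit or set of libraries (rows, the first being the edgeR fit of all 8 libraries). Filled points have an adjusted p under 0.1; all Igfbp5 values are above 0 and all Igfbp6 values below 0, and Igfbp5 is filled in every row of ISP with control.

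Igfbp2, the main binding protein of cerebrospinal fluid, lies on chromosome 1 from 72824503 to 72852474 on the plus strand, 5457 bases from Igfbp5, with the 2 genes pointing towards each other. It gave 49.1, 22.0, 32.4 and 32.6 CPM in control 19, 21, 36 and 38. Veh 2, 6, 8 and 10 held 37.5, 60.2, 30.9 and 64.0 CPM. ISP 12, 14, 16 and 18 held 17.2, 53.0, 20.1 and 72.0 CPM. As for Igf1, ISP 12 and ISP 16 were the lowest libraries of the series and ISP 18 was the highest. No comparison called Igfbp2, with log2 fold changes of 0.51 (SE 0.25, edgeR adjusted p = 0.341) in Veh with control, 0.26 (SE 0.40, adjusted p = 0.765) in ISP with control and -0.24 (95% interval -1.14 to 0.67, adjusted p = 0.807) in ISP with Veh. Without ISP 14 and ISP 18 the value in ISP with Veh was -1.37, which edgeR did not call while DESeq2 did (adjusted p = 0.00018). The neighbours Igfbp2 and Igfbp5 differed in where ISP 12 and ISP 16 stood against control. These libraries were the lowest of all 12 for Igfbp2 and above all control libraries for Igfbp5. Within ISP, both genes were highest in ISP 18, followed by ISP 14.

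Igfbp3, the main carrier of IGFs in serum, was the binding protein with the lowest level per length in all 3 groups (chromosome 11 from 7206086 to 7213923, minus strand). It had 7.24, 9.82, 11.8 and 5.39 CPM in control 19, 21, 36 and 38. Veh 2, 6, 8 and 10 had 8.78, 8.51, 7.85 and 6.74 CPM. ISP 12, 14, 16 and 18 had 11.1, 10.6, 8.83 and 10.4 CPM. The ISP libraries lay above the Veh libraries by a narrow margin, with ISP 16 at 8.83 and Veh 2 at 8.78 CPM, while the control libraries spanned both groups. The log2 fold change in ISP with Veh was 0.36 (SE 0.15, edgeR adjusted p = 0.294), and those in Veh with control and ISP with control were -0.09 and 0.26.

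Igfbp4, an inhibitory binding protein that is cleaved by the protease PAPP-A, lies on chromosome 11 from 99041244 to 99054392 on the plus strand. Its levels ran from 186 to 224 CPM in control, from 181 to 254 CPM in Veh and from 148 to 232 CPM in ISP. The lowest library was ISP 14, and the groups overlapped. Its log2 fold changes were 0.13 in Veh with control, -0.03 in ISP with control and -0.16 in ISP with Veh, where the 95% interval was -0.47 to 0.16.

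Igfbp7, a secreted protein that binds IGFs weakly and is found in vessel walls, lies on chromosome 5 from 77349240 to 77408041 on the minus strand. It ranged from 21.9 to 36.0 CPM in control, from 27.0 to 32.5 CPM in Veh and from 17.7 to 33.9 CPM in ISP. The ISP libraries other than ISP 18, at 17.7 to 23.6 CPM, lay below every Veh library. The log2 fold change was 0.05 in Veh with control, -0.20 in ISP with control and -0.24 in ISP with Veh (95% interval -0.61 to 0.13, edgeR adjusted p = 0.505). The last value was -0.45 without ISP 18, which edgeR did not call (adjusted p = 0.38) and DESeq2 did (adjusted p = 0.0934), and -0.12 without ISP 16. The opposite-strand gene Polr2b covers 7.0% of the exon bases of Igfbp7, and the library kit does not mark strand. Of 6 endothelial and 6 mural cell markers edgeR called 0 in each comparison. The shares of all genes called were 2.23% in Veh with control, 10.2% in ISP with control and 0.0% in ISP with Veh. The 6 endothelial markers had log2 fold changes of -0.27 to -0.03 in ISP with Veh, with 2 at an unadjusted p under 0.05, and 5 of the 6 mural cell markers were below 0, with 1 at an unadjusted p under 0.05.

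**Figure D5:**
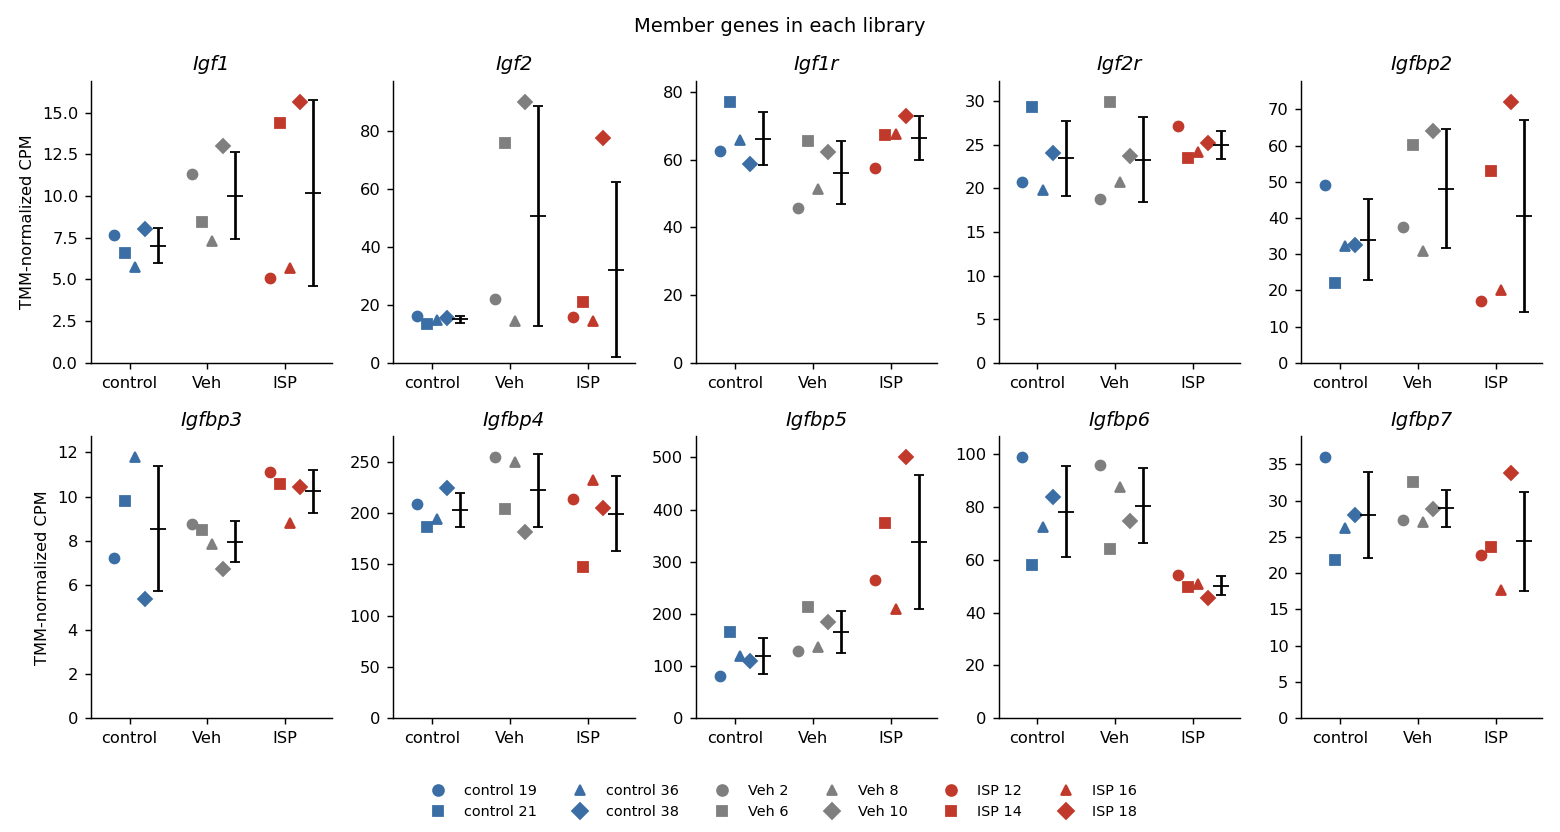
TMM-normalized CPM (y axes, from 0) of each member gene in every library, by group (x axes), with symbols naming the libraries and black bars giving mean ± SD of 4 libraries. Igfbp6 is below all other libraries in all 4 ISP libraries, Igfbp5 is above all control libraries in them, and Igf1, Igf2 and Igfbp2 are spread widely within ISP.

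Some members deviated together within groups. With each group's mean subtracted from log2 CPM, Igf1 and Igfbp2 had a Pearson r of 0.849 (Spearman 0.846), Igfbp2 and Igfbp7 of 0.808 (0.832), and Igf2 and Igfbp2 of 0.783 (0.741) over the 12 libraries. Negative values of similar size were found for Igf1r with Igfbp6 (r = -0.861, Spearman -0.86) and for Igfbp5 with Igfbp6 (r = -0.803, Spearman -0.832). These are descriptions over libraries that share depth, scaling and tissue composition.

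By the same measure, the genes nearest to Igf1 among all tested genes were Ms4a6d (r = 0.989), a membrane protein of microglia and macrophages, Oas1a (0.975), an interferon-induced RNA sensor, and Tap2 (0.969), a peptide transporter of antigen presentation. Nearest to Igf2 were Myof (0.966), Txnip (0.963) and Ggh (0.963). Igfbp2 was nearest to Ucp2 (0.976), Tcn2 (0.969) and Npc2 (0.955). Igfbp5 was nearest to Cpt1a (0.970), which imports fatty acids into mitochondria, Anxa4 (0.964) and Wnk1 (0.962), and Igfbp6 to Tma7 (0.965), Clta (0.962), a clathrin light chain, and Mslnl (0.960), which averaged only 0.426 CPM. The first genes for the others were Hmbox1 for Igf1r (0.955), Gopc for Igf2r (0.929), Adamts16 for Igfbp3 (0.938), Zmiz2 for Igfbp4 (0.966) and Tnc, the matrix protein tenascin C, for Igfbp7 (0.967). All were picked as the highest r over many genes from only 12 libraries, so high values can arise from this selection alone. None was tested.

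Other genes of the pathway were read against the share of all genes called. Of 15 further IGF and insulin genes, which act outside the cell or as receptors apart from the 3 intracellular mRNA-binding proteins Igf2bp1 to Igf2bp3, 7 passed the filter. Ins1 had no count in any library, and Ins2, Insrr, Igfbp1, Igfals, Igfbpl1, Igf2bp1 and Pappa were below the filter. The 3 antisense or imprinted neighbours of members, Airn, Igf2os and H19, were also below it, with summed levels of 0.309 to 1.84 CPM. Among the 7 tested genes only Htra1, a secreted serine protease that cleaves IGF-binding proteins, was called, with 175 ± 25.6 CPM in ISP and 135 ± 9.62 CPM in control (log2 fold change 0.38, SE 0.10, edgeR adjusted p = 0.059). This was 1 of 7 genes in ISP with control, against 10.2% of all genes. In Veh with control the log2 fold change of Htra1 was 0.34 (edgeR adjusted p = 0.106). The median log2 fold change of the 7 genes was 0.05 in ISP with Veh, -0.02 in Veh with control and -0.28 in ISP with control, and these medians were the same for the 5 genes left without Igf2bp2 and Igf2bp3.

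Of 28 genes that carry the IGF1R signal inside the cell, 27 were tested. In Veh with control, 0 were called higher and 3 lower, against 2.23% of all genes called in either direction. Irs2, an adaptor next to the receptor, fell from 70.7 ± 10.8 CPM in control to 51.2 ± 4.42 CPM in Veh (log2 fold change -0.46, SE 0.11, edgeR adjusted p = 0.0849). Pdpk1, the kinase that phosphorylates AKT, had a log2 fold change of -0.42 (adjusted p = 0.0746) and Sos1, the exchange factor that activates RAS, one of -0.33 (adjusted p = 0.0963). In ISP with control, 2 were called higher and 1 lower, a share close to the 10.2% of all genes called there. Gab1, a docking adaptor for PI3K and SHP2, rose from 17.8 ± 2.90 CPM in control to 31.1 ± 6.56 CPM in ISP (log2 fold change 0.80, SE 0.16, edgeR adjusted p = 0.0273), Foxo4, a transcription factor that AKT keeps out of the nucleus, rose by 0.46 on the log2 scale (adjusted p = 0.0269), and Pdpk1 fell by 0.35 (adjusted p = 0.0705). In ISP with Veh, 0 of 27 were called by edgeR, 5 had an unadjusted p under 0.05, and the median log2 fold change was 0.07. The medians were -0.10 in Veh with control and -0.11 in ISP with control. Over both lists, the 4 calls in ISP with control went to 0 without ISP 14 and ISP 18, to 2 without ISP 14, control 36 or control 38 and at an adjusted p under 0.05, and to 6 without control 19. The 3 calls in Veh with control went to 0 when any 1 of Veh 2, Veh 8, Veh 10, control 21, control 36 and control 38 was left out, without Veh 6 and Veh 10, with all 12 libraries in 1 fit and at an adjusted p under 0.05, and they became 7 with DESeq2 and 5 with no filter. DESeq2 called 1 of these genes, Foxo4, in ISP with Veh, against 2.77% of all genes.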

How the data were processed

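RNA-seq of 12 cortex samples was analysed, 4 each of control, Veh and ISP, numbered as in the labels. The authors enriched mRNA with oligo(dT) beads, mapped reads with HISAT2 to mm10 and obtained gene counts from HTSeq with default parameters, without a version in the sources used here. The table they deposited holds these raw counts, 1 per gene and library, and the authors called genes with DESeq2 at an adjusted p under 0.1 together with a minimum fold change, which was not applied here. A gene whose reads overlap another model can lose counts at these settings. Symbols were matched to GENCODE M21 (24365 of 25238, and 315 through RefSeq synonyms), whose exon unions gave lengths.

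Each comparison was fitted on its own 8 libraries with edgeR 4.0.16 in R 4.3.3 (filterByExpr, TMM, glmQLFit, glmQLFTest). The edgeR and DESeq2 fits were also run on simulated counts, drawn for each gene on its own. These counts held no shift in tissue composition shared by genes, so they do not check the calls against such shifts. SE is the log2 fold change divided by the square root of its F statistic. Alternatives were DESeq2 1.42.0 (also with its size factors in edgeR), limma-voom (limma 3.58.1) with quality weights, no filter, at least 10 counts in every library, a GC content and length offset (loess span 0.3), 1 fit of all 12 libraries, an adjusted p under 0.05, Spearman in place of Pearson, the longest transcript as length, and libraries left out. Leaving out Veh 6 and Veh 10, with or without ISP 18, and DESeq2 with libraries left out were chosen after seeing the data. The 18 pairs of libraries within groups had a chi-square per degree of freedom of 10.7 to 48.4, so none repeated another.

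The members and gene lists were chosen with earlier results of these data known. Named were all members, the called pathway genes, Insr, Airn, Igf2os and H19, up to 3 markers of each list, and for each member the nearest genes by Pearson r, leaving out predicted genes. Promoter windows are the part before the start in the RefSeq table, which held 14 windows for the 10 members. Replicate numbers are not shared between groups, so nothing was paired. The labels name no batch.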

Additional observations from a re-analysis of the deposited data

Results flagged for a closer look

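Among 30 tests of 1 member in 1 group of 4 libraries, the gap to the nearest library exceeded Dixon's 95% critical value once. Igf2 stood at 77.7 CPM in ISP 18, where the other ISP libraries had 14.4 to 21.1 CPM. Chance flags about 1 in 20 such tests. The 2 highest Veh libraries were both high and are not singled out by this test. ISP 18 also held choroid plexus markers at a summed 1164 CPM, and their part in the value was not tested.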

How the results depend on the processing

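Igfbp5 was called in ISP with control under all 16 other fits and sets of libraries run, and Igfbp6 under 15 of 16. Igf2 was called in Veh with control under 6 of 16. With 4 libraries per group, counts of calls over all genes moved widely, and the cause was not tested.

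For ISP with Veh, genes called went from 0 to 405 with DESeq2, 4 without Veh 6 and Veh 10, 8 without these and ISP 18, and 0 to 72 with 1 library left out, the highest without Veh 6. Members called went from 0 to 2 with DESeq2, to 1 in both of those smaller sets, and 0 to 1 with 1 library left out. DESeq2 called 1 to 2 members with 1 library left out. For Veh with control, the 337 genes called became 1133 with DESeq2, 510 with no filter, 28 with all 12 libraries in 1 fit, 18 at an adjusted p under 0.05, 34 without Veh 6 and Veh 10, and 0 to 461 with 1 library left out. That count was 0 without control 21, 6 without Veh 2 or control 36, 84 without control 38, 111 without Veh 10 and 199 without Veh 8. The 1 member called became 0 with all 12 libraries in 1 fit, at an adjusted p under 0.05, without Veh 6 and Veh 10 and with limma-voom, and was 0 to 1 with 1 library left out. In ISP with control, the 1547 genes became 691 at an adjusted p under 0.05, 90 without ISP 14 and ISP 18, and 420 to 2283 with 1 library left out. The lowest of these were 420 without ISP 14, 486 without control 38, 514 without ISP 18, 727 without control 36 and 811 without control 19. The 2 members became 1 without ISP 14 and ISP 18, and were 2 to 3 with 1 library left out, the third being Igf2 without ISP 16.

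None of the 3 called log2 fold changes changed sign under the settings run. Changes of sign were found for values that were not called, and their cause was not tested. For ISP with Veh, Igf1 was -0.085 with GC content and length trends removed, -0.89 without ISP 14 and ISP 18, -0.15 without Veh 6, Veh 10 and ISP 18, and -0.25 to 0.26 with 1 library left out. Igf2 and Igfbp2 were 0.82 and 0.25 without Veh 6 and Veh 10, Igfbp2 was -0.67 to 0.01 with 1 library left out, and Igfbp4 was 0.0038 without ISP 14 and ISP 18. For Veh with control, Igf2r was -0.0031 with DESeq2, -0.0017 with its size factors, -0.00021 with GC content and length trends removed, -0.0061 with all 12 libraries in 1 fit, -0.25 without Veh 6 and Veh 10, and -0.14 to 0.12 with 1 library left out. Igfbp6 and Igfbp7 were -0.049 and -0.043 with GC content and length trends removed, and Igfbp2 and Igfbp7 were -0.00099 and -0.047 without Veh 6 and Veh 10. With 1 library left out, Igfbp3 ran from -0.27 to 0.10, Igfbp6 from -0.079 to 0.17 and Igfbp7 from -0.052 to 0.20. In ISP with control, Igf1, Igf1r, Igfbp2 and Igfbp4 were -0.38, -0.075, -0.87 and 0.13 without ISP 14 and ISP 18, and Igf1r was -0.0045 with no filter. With 1 library left out, Igf1r ran from -0.054 to 0.080, Igfbp2 from -0.18 to 0.51 and Igfbp4 from -0.12 to 0.089. With Spearman in place of Pearson, 12 of the 30 nearest genes were shared where ties were broken by table order and 16 where tied genes share the better rank, and with the longest transcript as length Igf1 stayed the lowest member in control at 0.995 CPM per kb.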
